A study of Mus musculus with 4 samples.

Results

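The caseins and whey proteins make up most of the protein secreted into milk, and 8 of their genes were followed here in mammary tumours of mice: the caseins Csn1s1, Csn2, Csn1s2a, Csn1s2b and Csn3, the whey proteins Wap and Lalba, and the milk mucin Glycam1. Members were taken as all probes outside controls whose array name is one of these symbols or the former symbol Csna, Csnb, Csng, Csnd or Csnk, which gave 10 of 41174 probes and 8 of 36093 genes or transcript names. Tumours of Cdc25a;neu mice, which carry both an MMTV-cdc25a and an MMTV-neu transgene, were compared with tumours of neu mice, which carry MMTV-neu alone. All 4 donors were female FVB/N mice 26 weeks of age, and every tumour was early (T1). Each of 2 pairs set 1 Cdc25a;neu tumour against 1 neu tumour on a 2-colour array, and each pair was hybridised on 2 arrays with the dyes exchanged. The MMTV promoter is active in mammary epithelium, and neu, the rodent Erbb2, is a receptor tyrosine kinase that drives mammary tumours. Cdc25a is a phosphatase that activates cyclin-dependent kinases.

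Milk protein genes are switched on in the secretory luminal cells of the mammary gland during pregnancy and lactation. Prolactin binds its receptor Prlr, the kinase Jak2 phosphorylates the transcription factors Stat5a and Stat5b, and these bind TTCNNNGAA sites in milk protein promoters, together with the glucocorticoid receptor and other factors. Caseins carry calcium and phosphate in micelles, whereas Lalba, alpha-lactalbumin, is the partner of the galactosyltransferase B4galt1 in lactose synthesis.

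The promoters of Csn1s1, Csn2, Glycam1 and Lalba are shown because the first 3 hold a TTCNNNGAA match upstream of the start and the fourth, like Wap, holds none. Each is the 250 bases before the RefSeq gene start on GRCm38.p6, written 5′ to 3′ on the strand of the gene, with the TTCNNNGAA match in capitals. Csn1s1 lies at chr5:87665958-87666207 on the plus strand, Csn2 at chr5:87699426-87699675 on the minus strand, Glycam1 at chr15:103565082-103565331 on the minus strand and Lalba at chr15:98482684-98482933 on the minus strand.
Csn1s1: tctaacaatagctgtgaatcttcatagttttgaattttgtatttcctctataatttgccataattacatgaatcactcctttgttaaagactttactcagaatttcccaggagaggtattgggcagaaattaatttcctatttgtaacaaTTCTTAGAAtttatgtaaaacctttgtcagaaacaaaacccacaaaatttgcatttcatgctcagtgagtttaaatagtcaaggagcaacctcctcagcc
Csn2: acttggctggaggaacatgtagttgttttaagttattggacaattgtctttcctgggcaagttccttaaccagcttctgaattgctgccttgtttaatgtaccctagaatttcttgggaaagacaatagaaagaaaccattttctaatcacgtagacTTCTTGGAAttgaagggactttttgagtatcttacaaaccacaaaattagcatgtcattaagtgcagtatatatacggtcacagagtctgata
Glycam1: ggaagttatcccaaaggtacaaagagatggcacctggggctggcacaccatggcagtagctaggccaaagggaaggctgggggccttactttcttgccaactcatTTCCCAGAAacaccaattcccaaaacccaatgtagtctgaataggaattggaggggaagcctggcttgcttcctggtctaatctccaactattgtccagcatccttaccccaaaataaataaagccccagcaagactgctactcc
Lalba: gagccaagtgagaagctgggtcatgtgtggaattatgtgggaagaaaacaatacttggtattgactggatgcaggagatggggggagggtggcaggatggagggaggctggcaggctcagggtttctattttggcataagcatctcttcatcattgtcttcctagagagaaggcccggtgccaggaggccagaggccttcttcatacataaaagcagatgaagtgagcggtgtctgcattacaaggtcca
Windows of 300 bases, 250 upstream and 50 downstream of the start, were given for 6 of the 8 members. TTCNNNGAA, which reads the same on both strands, was found in 4 of these 6 windows, against 8.3% of 32851 windows of the same length over all genes. The match is TTCTTAGAA at -100 to -92 in Csn1s1, TTCTTGGAA at -93 to -85 in Csn2 and TTCCCAGAA at -145 to -137 in Glycam1, counted from the start. In Csn1s2a the match TTCTTAGAA, the same 9 bases as in Csn1s1, lies downstream at 21 to 29. The windows of Lalba and Wap held no match to these letters. The glucocorticoid receptor element TGTTCT, searched on both strands, was in 1 of the 6 windows, that of Csn1s2a at -59 to -54, against 19.0% of all windows. TATAAA, also on both strands, was in 0 of the 6 windows, against 13.6% of all windows. No motif overlapped another in these windows.

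On the arrays the 8 genes split. Csn2 was higher in Cdc25a;neu than in neu tumours on all 4 arrays, Lalba was lower on all 4, and Csn1s1, Csn1s2a and Glycam1 were higher in the Cdc25a;neu tumour of pair 2 but not of pair 1. Csn1s2b and Wap had ratios near 0 on dim probes, and the Csn3 probe was saturated. In the limma fit of the 2 pair ratios none (0) of 32655 genes, and so none of the members, had an adjusted p under 0.05 (percent called 0), and 9.66% of all genes had an unadjusted p under 0.05. With median centring of each array in place of loess, 933 genes were called, Csn1s1, Csn2 and Lalba among them, in a fit whose variances came almost wholly from a pool over all genes (101 prior against 1 residual degree of freedom). Of the 7 members measured below saturation, 1 was higher on all 4 arrays, against 14.7% of all genes, and 1 was lower on all 4, against 12.4%. The median log2 ratio over these 7 was -0.1 in pair 1 and 0.85 in pair 2, against 0 and 0 over all genes. Glycam1, itself the pair 2 median, was not above background in 1 tumour of each pair, and over the other 6 the medians were -0.04 and 0.84. All ratios are Cdc25a;neu over neu, and with bulk tissue fewer cells of a type and less RNA per cell cannot be told apart.

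**Figure D1:**
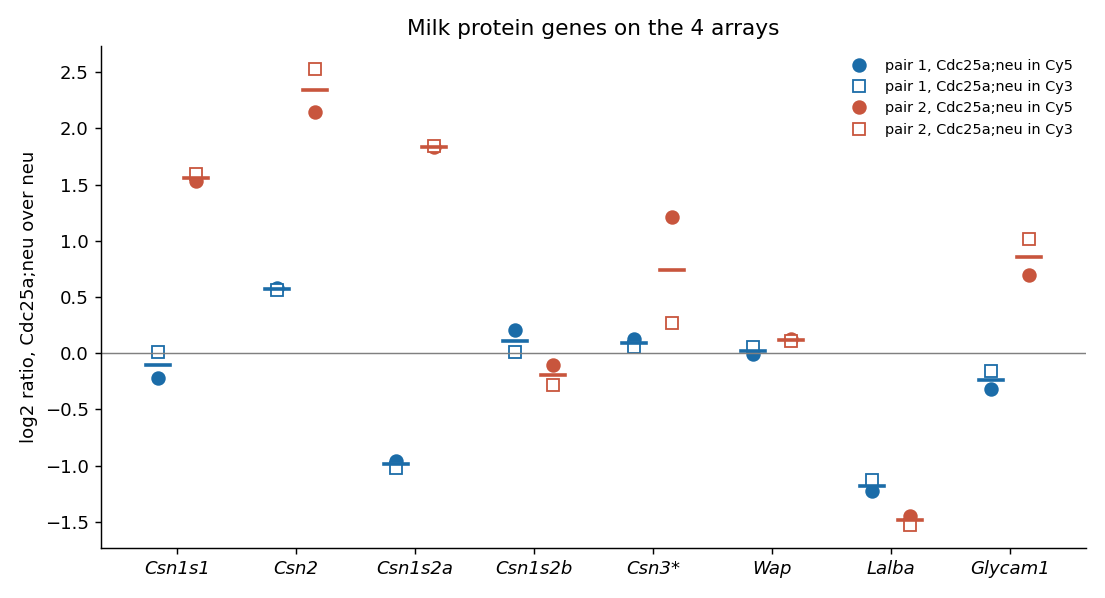
Log2 ratio (y axis, Cdc25a;neu over neu) of each milk protein gene (x axis) on each of the 4 arrays, with pair 1 in blue and pair 2 in red, Cdc25a;neu in Cy5 as filled circles and in Cy3 as open squares, and the mean of a pair as a bar. Csn3* is the unsaturated probe BC004601. The 2 arrays of a pair lie close together for Csn1s2a, at -0.96 and -1.02 (pair 1, blue) and at 1.83 and 1.84 (pair 2, red), so its pairs stand apart, whereas Lalba lies between -1.13 and -1.53 on all 4.

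Csn2, beta-casein, was the member with the highest ratio. Its log2 ratio was 0.58 and 0.57 on the arrays of pair 1 and 2.15 and 2.53 on those of pair 2. On the scale of normalized log2 channel signal its level was 9.08 and 11.95 in the Cdc25a;neu tumours of pairs 1 and 2, against 8.51 and 9.61 in the neu tumours. Within each pair the Cdc25a;neu tumour was the higher, yet the groups overlap, since the neu tumour of pair 2 exceeded the Cdc25a;neu tumour of pair 1. The difference was 1.49-fold in pair 1 and 5.06-fold in pair 2, and averaged 1.46 ± 1.25 on the log2 scale (SD over 2 pairs; adjusted p = 0.543 by limma). The SD is nearly as large as the mean, so the size of the difference is poorly fixed.

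Csn1s2a, one of the calcium-sensitive alpha-S2 caseins, turned between the pairs. Its log2 ratio was -0.96 and -1.02 on the arrays of pair 1 and 1.83 and 1.84 on those of pair 2. Its level was 10.2 and 13.69 in the Cdc25a;neu tumours, against 11.19 and 11.85 in the neu tumours. The Cdc25a;neu tumours were thus the lowest and the highest of the 4, with both neu tumours between them. This was 1.98-fold lower in pair 1 and 3.58-fold higher in pair 2, and averaging both gave 0.424 ± 1.999 (SD over 2 pairs; adjusted p = 0.893 by limma). The 2 arrays of a pair differed by only 0.063 and 0.012, against 2.83 between the pairs.

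Csn1s1, alpha-S1-casein, differed in pair 2 alone. The arrays of pair 1 gave log2 ratios of -0.22 and 0.02 and those of pair 2 gave 1.53 and 1.59. Its level was 9.79 and 11.19 in the Cdc25a;neu tumours, against 9.89 and 9.63 in the neu tumours. The tumour of pair 2 with both transgenes stood above the other 3, which lay between 9.63 and 9.89. It was 2.95-fold higher than its neu partner, and both pairs averaged 0.73 ± 1.18 (SD over 2 pairs; adjusted p = 0.693 by limma).

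Glycam1, a mucin-like glycoprotein of milk whey that is also made by the high endothelial venules of lymph nodes, was dim. It gave log2 ratios of -0.31 and -0.16 on the arrays of pair 1 and of 0.70 and 1.01 on those of pair 2. Its level was 5.95 and 6.98 in the Cdc25a;neu tumours, against 6.19 and 6.13 in the neu tumours. The signal was well above background on 2 of 4 arrays for Cdc25a;neu, both of pair 2, and on 2 of 4 for neu, both of pair 1. Averaged over the pairs it was 0.31 ± 0.77 (SD over 2 pairs; adjusted p = 0.789 by limma), and in the authors' deposited table, which holds values for pair 2 only, it was 2.22. Of 9 measured markers of lymph node and high endothelial venules 0 passed. On all 4 arrays 2 were higher and 0 lower, against 14.7% and 12.4% of all genes. Chst4 had 0.05 and 0.07 and Madcam1 0.00 and -0.03 in pairs 1 and 2, while Cd34 had -0.05 and 0.35 and Chst2 0.01 and 0.22 (both named after their values were seen). The part of such vessels in the Glycam1 signal was not tested. The mean level of this list was 7.72 and 7.92 in Cdc25a;neu tumours, against 7.68 and 7.85 in neu tumours.

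Csn1s2b, the other alpha-S2 casein, stayed within 0.3 of 0 on every array, with log2 ratios of 0.21 and 0.01 in pair 1 and -0.10 and -0.28 in pair 2. Its level was 7.04 and 7.04 in the Cdc25a;neu tumours, against 6.93 and 7.23 in the neu tumours, so the neu tumours lay on either side. The mean was -0.04 ± 0.22 (SD over 2 pairs; adjusted p = 0.915 by limma). Its sign turned when an array with Cdc25a;neu in Cy3 was left out, to 0.009 for pair 1 and 0.004 for pair 2. A second Csn1s2b probe gave 0.09 and -0.07 in the pairs. Both probes were dim, with signals before background correction of 97 to 199 and 86 to 141. The array medians were 98 to 162 in green and 161 to 203 in red. Ratios near 0 on such probes do not show that the gene was unchanged.

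Csn3, kappa-casein, which caps the micelle, could not be compared with its own probe. The spot was saturated in both channels on all 4 arrays, with signals of 65179 to 65208, so both genotypes had only a lower bound and no fold is given. A probe outside the rule, named BC004601 on the array, lists the Csn3 transcript among its accessions and was not saturated. Its log2 ratio was 0.13 and 0.06 on the arrays of pair 1 and 1.21 and 0.27 on those of pair 2. Its level was 12.88 and 13.42 in the Cdc25a;neu tumours, against 12.79 and 12.68 in the neu tumours. Both Cdc25a;neu tumours lay above both neu tumours on this probe, as for 8.51% of all genes, but the 2 arrays of pair 2 differed by more than the pairs did.

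Of the whey proteins, Lalba was lower in Cdc25a;neu tumours. Its log2 ratio was -1.22 and -1.13 on the arrays of pair 1 and -1.44 and -1.53 on those of pair 2. Its level was 9.58 and 9.74 in the Cdc25a;neu tumours, against 10.76 and 11.23 in the neu tumours. The groups do not overlap, a placement seen for 11.3% of all genes, and being lower on all 4 arrays with at least 2-fold in both pairs was seen for 0.0857%. The like placement on the higher side, held by 0 members, was seen for 0.291%. Lalba was 2.26-fold lower in pair 1 and 2.8-fold lower in pair 2, and averaged -1.33 ± 0.22 on the log2 scale (SD over 2 pairs; adjusted p = 0.438 by limma). Its mean is several times its SD, yet it did not pass after adjustment over all genes.

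Wap, the whey acidic protein, gave ratios near 0. The arrays gave log2 ratios of -0.01 and 0.05 in pair 1 and of 0.13 and 0.11 in pair 2. Its level was 7.42 and 7.38 in the Cdc25a;neu tumours, against 7.40 and 7.26 in the neu tumours. The values overlap, and the pairs averaged 0.07 ± 0.07 (SD over 2 pairs; adjusted p = 0.713 by limma). A second Wap probe gave -0.02 in pair 1 and 0.43 in pair 2. Both probes were dim, with signals before background correction of 107 to 280 and 73 to 206. The array medians were 98 to 162 in green and 161 to 203 in red, so an unchanged Wap is not shown.

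**Figure D2:**
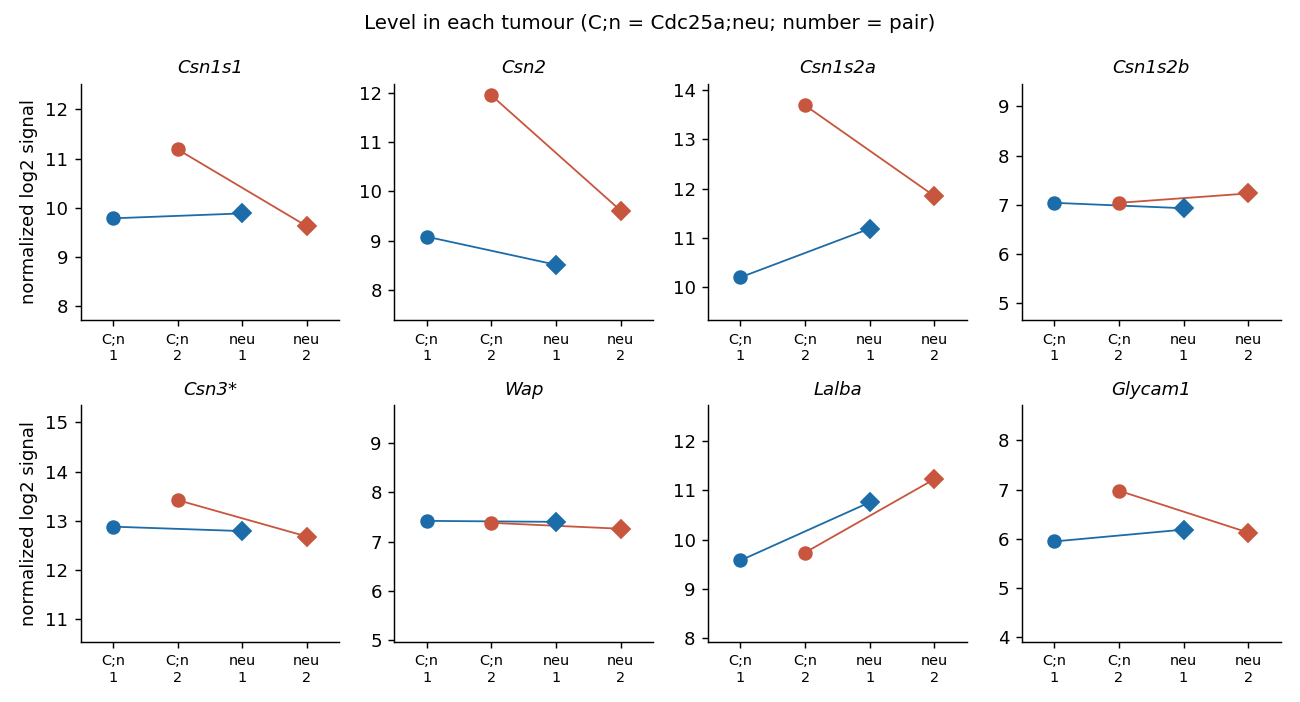
Normalized log2 signal (y axis, every panel spanning the same range of log2 units) of each milk protein gene in the 4 tumours (x axis, C;n for Cdc25a;neu, then neu, with the pair number), where lines join the tumours hybridised together. Only Lalba, with 9.58 and 9.74 against 10.76 and 11.23, and the unsaturated Csn3 probe marked Csn3* keep both Cdc25a;neu tumours on one side of both neu tumours.

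The members also varied within a genotype. The Cdc25a;neu tumour of pair 2 exceeded that of pair 1 by 3.49 for Csn1s2a, 2.87 for Csn2 and 1.40 for Csn1s1 on the log2 scale of levels. The same gap between the neu tumours was 0.66 for Csn1s2a, 1.10 for Csn2 and -0.26 for Csn1s1. For Lalba it was 0.16 between the Cdc25a;neu tumours and 0.47 between the neu tumours. Over all genes the 2 arrays of a pair differed by a median of 0.113 in pair 1 and 0.111 in pair 2, with 95th percentiles of 0.374 and 0.423. Csn2, Csn1s1 and Csn1s2a differed between the pairs by 1.77, 1.67 and 2.83, above the 95th percentile of 0.579 for the gap between pairs over all genes. So did the dim Glycam1, by 1.09, whereas Csn1s2b, Lalba and Wap differed by 0.30, 0.31 and 0.09.

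The 2-fold counts follow this split. In pair 2, 3 members were at least 2-fold higher, namely Csn1s1, Csn2 and Csn1s2a, against 1.00% of all genes, and 1, Lalba, was at least 2-fold lower, against 0.539%. In pair 1, 0 were at least 2-fold higher, against 0.377%, and 1, again Lalba, was at least 2-fold lower, against 0.374%. Csn1s2a, Csn1s2b and Glycam1 had opposite signs in the pairs with both arrays of each alike, as did 13.5% of all genes. These are counts of 7 genes chosen as milk proteins and carry no test.

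**Figure D3:**
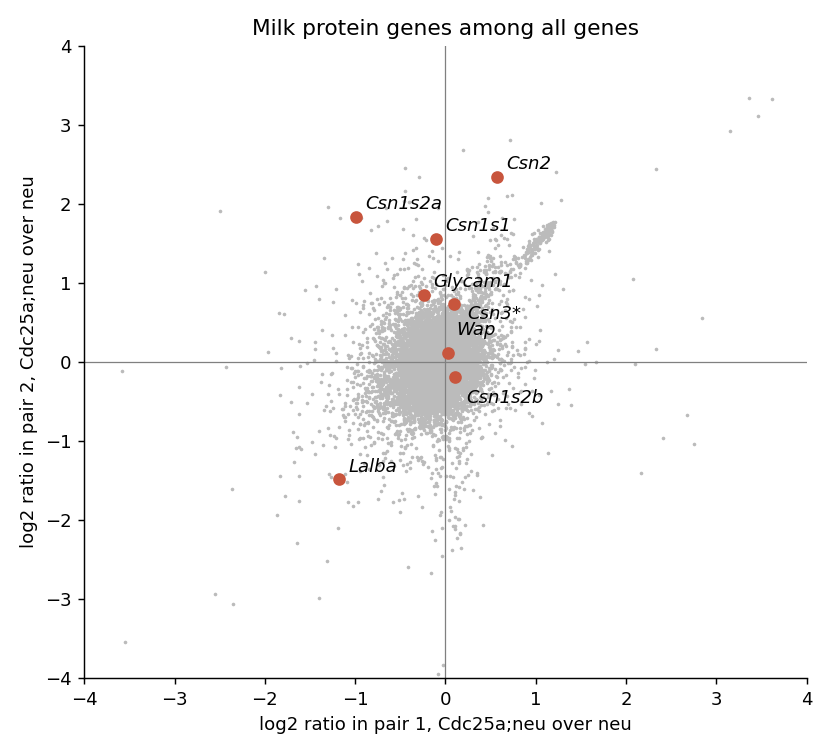
Log2 ratio in pair 1 (x axis) against log2 ratio in pair 2 (y axis), Cdc25a;neu over neu, with all genes in grey, 1 of them beyond the axes, and the milk protein genes in red. Csn2, Csn1s2a and Csn1s1 lie at the upper edge with pair 2 values of 2.34, 1.84 and 1.56, and Lalba lies at the lower left with -1.18 and -1.49.

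The 5 casein genes lie in a cluster on mouse chromosome 5, in the order Csn1s1, Csn2, Csn1s2a, Csn1s2b and Csn3. Between Csn1s2b and Csn3 lie other genes, among them Prr27 and Odam, which were not measured. Wap is on chromosome 11, and Lalba and Glycam1 are on chromosome 15. The measured ratios differed within the cluster, since Csn1s2b next to Csn1s2a had a pair 2 ratio of -0.19 against 1.84. The Csn1s2b probes were dim, so whether the cluster moved as a block cannot be told from them. Of the genes beside the caseins that were measured, Sult1e1 had a mean log2 ratio of -0.05, BC051076 0.07 and Smr3a -0.03. Lalba and Glycam1, on the same chromosome, had pair 2 ratios of -1.49 and 0.85.

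Likeness was taken as the Euclidean distance between the 4 tumour levels, each gene centred on its own mean, over 15300 genes with a current symbol. The genes outside the members nearest to Csn2 were Fbln5, an elastic fibre protein, at a distance of 0.60, Pf4, a platelet chemokine, at 0.70, and Col1a1, a collagen chain, at 0.86. Csn1s2a ranked 11, Csn1s1 ranked 50, Glycam1 ranked 238, Csn1s2b ranked 5926, Wap ranked 7012 and Lalba ranked 15182 in likeness to Csn2. The nearest to Wap were Clps, Pdlim7 and Rdh16, at distances of 0.00, 0.01 and 0.02, all with nearly flat levels. The nearest to Lalba, added after the values were seen, were C5ar2 at 0.09, Cidec, a lipid droplet protein of the adipocyte list, at 0.26 and Cox8b at 0.29. These are descriptions over 4 tumours.

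Genes of lactogenic hormone signalling lay on both sides of 0. Over all genes 14.7% were higher and 12.4% lower on all 4 arrays, and the median ratios were 0 and 0. Of 27 listed, 26 were measured, 0 passed, 1 was higher and 7 were lower on all 4 arrays, and the median log2 ratio was 0.00 in pair 1 and -0.21 in pair 2. Stat5a, the main activator of milk protein genes, had a ratio of 0.74 in pair 1 and one of -1.06 in pair 2 (adjusted p = 0.941 by limma), with levels of 11.32 and 10.03 in Cdc25a;neu tumours, against 10.58 and 11.09 in neu tumours. Its Cdc25a;neu tumours were the highest and the lowest of the 4, the reverse of Csn1s2a. Stat5b had 0.23 and -0.59 in the pairs, and a second Stat5b probe had 0.06 and -0.02.

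The receptor Prlr had ratios of -0.23 and -0.65, with levels of 8.75 and 8.63 in Cdc25a;neu tumours, against 8.97 and 9.28 in neu tumours (adjusted p = 0.524 by limma). On this probe both Cdc25a;neu tumours lay below both neu tumours, as for 11.3% of all genes. A second Prlr probe had 0.02 and -0.24. Jak2 had -0.06 and -0.07, and Elf5, a luminal transcription factor needed for alveolar development, had 0.18 and -0.12. Also lower on all 4 arrays were Xbp1, a factor of the secretory pathway, with -0.29 and -0.64, and Socs2, a feedback inhibitor of cytokine signalling, with -0.45 and -0.25. Nfib and Nfic, nuclear factors I that bind milk protein promoters, had mean ratios of -0.33 and -0.31, although a second Nfib probe had -0.08 and 0.18. Of the other 3 Nfic probes 1 had -0.65 and 0.10, 1 had 0.00 and 0.32 and 1 had -0.55 and -0.55.

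**Figure D4:**
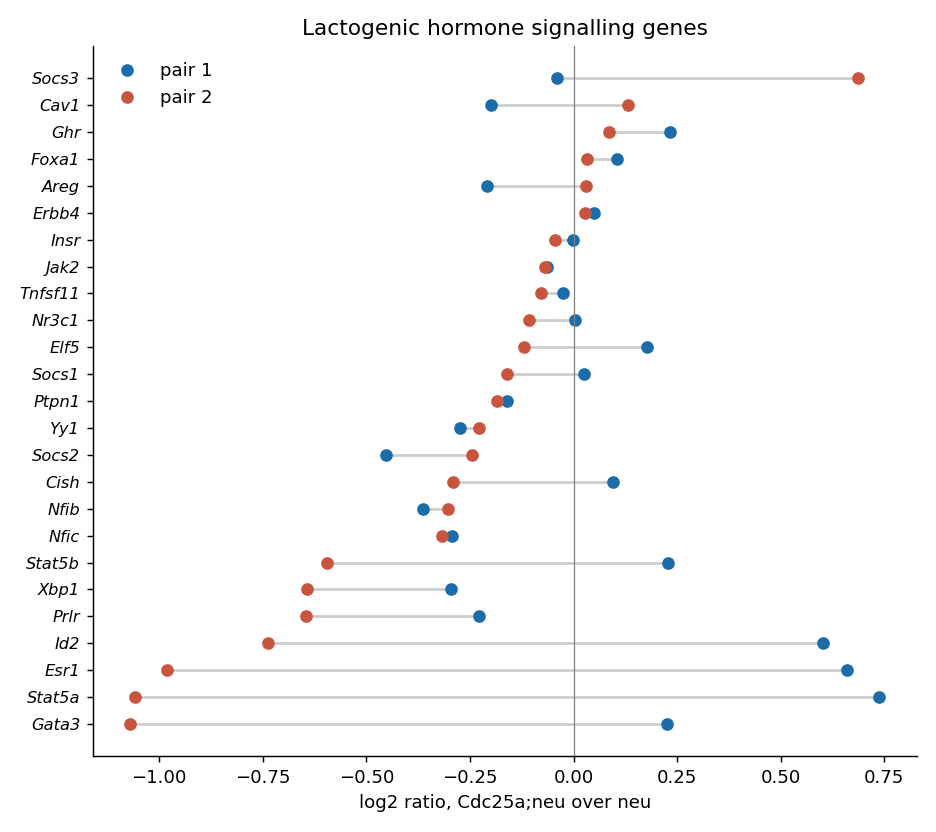
Log2 ratio (x axis, Cdc25a;neu over neu) of 25 lactogenic signalling genes (y axis, ordered by pair 2), with pair 1 in blue and pair 2 in red. Stat5a runs from 0.74 in pair 1 to -1.06 in pair 2, while Jak2 has nearly the same value in both, -0.06 and -0.07; a gene measured in pair 2 only is not drawn.

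Lactose and milk fat genes were measured for 19 of 22 listed, of which 0 passed. On all 4 arrays 2 were higher and 7 lower, against 14.7% and 12.4% of all genes. Their median ratio was -0.02 in pair 1 and -0.36 in pair 2, against 0 and 0 over all genes. B4galt1, the galactosyltransferase that Lalba modifies into lactose synthase, had -0.35 and -0.95 in the pairs, averaging -0.65 ± 0.42 (SD over 2 pairs; adjusted p = 0.516 by limma). Its level was 11.61 and 11.17 in Cdc25a;neu tumours, against 11.96 and 12.12 in neu tumours, and a second probe gave -0.25 and -0.84. The glucose transporter Slc2a1 had -1.30 and -0.83, with levels of 11.02 and 11.31 in Cdc25a;neu tumours, against 12.32 and 12.15 in neu tumours. For B4galt1 and Slc2a1 both Cdc25a;neu tumours lay below both neu tumours, as for 11.3% of all genes. These are pair means, and the dye-swapped arrays differed widely. With Cdc25a;neu in Cy5 the pair 1 ratio of B4galt1 was -0.004, but it was -0.70 with the dyes exchanged. Its pair 1 decrease thus rests on 1 array, whereas its pair 2 arrays read -1.05 (Cy5) and -0.85 (Cy3). Slc2a1 moved from -0.85 (Cy5) to -1.75 (Cy3) within pair 1, and from -0.50 to -1.17 within pair 2. Ugp2, which makes UDP-glucose and was named after its values were seen, had 0.30 and 0.07, and its second probe 0.47 and 0.21. Among milk fat genes, the lipogenic regulator Thrsp had -0.68 and -1.56, the fatty acid transporter Cd36 had 0.88 and 0.57, and the desaturase Scd2 had 0.52 and 0.67.

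Other milk and secretory proteins were measured for 19 of 20 listed, of which 0 passed, with medians of 0.01 and 0.09. On all 4 arrays 4 were higher and 2 lower, against 14.7% and 12.4% of all genes. Spp1, osteopontin, had 0.72 in pair 1 and 2.81 in pair 2, with levels of 13.78 and 15.50 in Cdc25a;neu tumours, against 13.07 and 12.69 in neu tumours. The milk fat globule protein Mfge8 had 0.63 and 0.85, and B2m, beta-2 microglobulin, had -0.42 and -2.59. Some spots of these 3 genes were saturated, and without them the mean ratios were 1.82 for Spp1, 0.81 for Mfge8 and -1.45 for B2m. Muc15, a membrane mucin of the milk fat globule, had -0.36 and -0.25.

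Cell type markers were read beside the milk genes, and their part in the results was not tested. The counts on all 4 arrays, here and in the next paragraph, stand against 14.7% higher and 12.4% lower over all genes. Luminal epithelial markers, the type that makes milk, were measured for 14 of 14 listed, with 1 higher and 3 lower on all 4 arrays and mean levels of 9.66 and 9.78 in Cdc25a;neu tumours, against 9.75 and 9.81 in neu tumours. Krt8 had 0.16 and 0.14 in the pairs, Krt18 -0.22 and -0.11 and Epcam -0.17 and -0.51. Of 9 basal and myoepithelial markers 1 was higher and 0 lower, with mean levels of 8.95 and 9.07 in Cdc25a;neu tumours, against 8.92 and 8.75 in neu tumours, and Krt5 had -0.08 and 0.02, Krt14 0.03 and 0.16 and Acta2 -0.13 and 0.79. The named luminal and basal markers were well above background in both channels on all 4 arrays.

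Of 10 adipocyte markers 0 passed, 6 were lower and 1 was higher on all 4 arrays, and their mean levels were 7.84 and 7.81 in Cdc25a;neu tumours, against 8.80 and 9.32 in neu tumours. Cfd had -3.55 and -3.54, Adipoq -1.31 and -2.51 and Cidec -0.96 and -1.77, while Pparg, named after its values were seen, had 0.04 and -0.13. Lipe, the 1 higher on all 4 arrays and also named after its values were seen, had 0.16 and 0.24. Lalba, lower in both pairs, moved with the 6 lower markers. The part of the adipocyte markers in its ratio was not tested. Skeletal muscle markers, measured for 9 of 10 listed, had mean levels of 7.12 and 7.10 in Cdc25a;neu tumours, against 7.11 and 8.18 in neu tumours, so the neu tumour of pair 2 was the highest. Of these 9, 1 was higher and 0 lower on all 4 arrays, and Acta1 had 0.06 and -0.54 and Ckm -0.01 and -0.49. The 3 lowest in pair 2, named after their values were seen, were Tnni2 with -2.38, Myl1 with -2.25 and Tnnc2 with -1.83, against 0.07, -0.11 and -0.26 in pair 1. The pair 2 value of Tnnc2 rests on 1 array, that with Cdc25a;neu in Cy5. Lymphocyte markers, 10 of 12 measured, had mean levels of 7.37 and 7.42 in Cdc25a;neu tumours, against 7.37 and 7.41 in neu tumours, and Cd3e had 0.07 and 0.09. Salivary gland markers, 7 of 12 measured, with 2 higher and 1 lower on all 4 arrays, had mean levels of 8.54 and 8.19 in Cdc25a;neu tumours, against 7.80 and 7.72 in neu tumours, and 0 passed. Dcpp1 had 3.36 and 3.34 in the pairs, Amy1 -0.16 and -0.55 and Bpifa2 0.05 and 0.10. Prol1, named after its values were seen, had 1.67 and 0.00, so the mean of this list rests mainly on Dcpp1 and, in pair 1, Prol1.

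The remaining checks concern the arrays as a whole. The brightest Cdc25a probe had 0.09 and 0.01 in the pairs, a second Cdc25a probe 0.14 and 0.08, and the Erbb2 probe 0.45 and 0.85. The sources used here do not say whether these probes read the transgenes. Each array had 41534 spots outside controls, of which 78.5% to 92.2% were well above background in green and 82.7% to 87.9% in red. Apart from Glycam1, every member was well above background in both channels on all 4 arrays. The probes of Csn1s2b and Wap were dim all the same, with signals near the array medians. Precision is limited by the number of tumours, 2 per genotype.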

How the data were processed

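Per the labels' protocols, tumour RNA came from an Agilent isolation kit and was copied by linear amplification primed with oligo-dT, in which Cy3 or Cy5 was built in. The deposited scanner files hold spot intensities, background medians, flags and log10 ratios, per the file headers; Feature Extraction was version 7.5.1 there and 7.2 per the submitters' processing notes. The authors' deposited value table holds natural log ratios of red to green (slopes of 2.27 to 2.29 on the scanner's log10 ratio for signals above 3000), with column medians of 0.0209, 0.0007, 0.0209 and 0.0078; the sources used here do not say how it was centred or normalized, so it was an alternative only.

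Intensities were background-corrected by normexp (offset 50) and loess-normalized within each array, controls unweighted and then dropped with outlier-flagged spots. A probe entered if either channel was well above background on 2 or more of the 4 arrays, and the brightest represented its gene (32655 genes). Swapped arrays were turned and the 2 arrays of a pair, which share RNA, were averaged, so n = 2 pairs. The mean pair ratio was tested against 0 with limma 3.58.1 (R 4.3.3), two-sided, Benjamini-Hochberg adjusted at 0.05 over all genes; SDs are between pairs. Tumour levels are log2 signals after loess and Aquantile, and levels of different probes were not compared. Of 41174 probes, 18421 were named by accession, 1502 by symbol and 936 by synonym from a table of GRCm38.p6; the files name no build. The analysis was tested on simulated data. Named are all members, up to 6 genes per list with the same sign on all 4 arrays and the largest ratios, the lactogenic genes Prlr, Stat5a, Stat5b, Jak2 and Elf5, the markers that define a type, and the 3 genes most like Csn2 and Wap. Members and lists were chosen with earlier results of these data known.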

Additional observations from a re-analysis of the deposited data

How the results depend on the processing

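The members' ratios were recomputed with other background corrections, normalizations, filters, probe rules, moderation, the deposited table and each array left out in turn. Median centring in place of loess was the setting that brought calls: Csn1s1 then had 0.78 (limma adjusted p = 0.00209), Csn2 1.53 (9.92e-11) and Lalba -1.28 (9.95e-11), and 933 genes were called, against 0 with loess and 0 under all other settings that gave a count. There the prior held 101 degrees of freedom against 1 residual (1.73 with loess), so nearly 1 pooled variance served every gene and the spread between a gene's own 2 pairs hardly counted. The unadjusted count ran from 186, with trend and robust moderation, to 3441 without a filter. Csn1s2b turned its sign without the Cy3 array of pair 1 (0.009) or of pair 2 (0.004), over a leave-one-out range of -0.09 to 0.009. The leave-one-out ranges over arrays, which drop 1 dye-swap array of the same RNA, were 0.672 to 0.789 for Csn1s1, 1.36 to 1.55 for Csn2, 0.408 to 0.44 for Csn1s2a, 0.055 to 0.085 for Wap, -1.35 to -1.31 for Lalba and 0.23 to 0.388 for Glycam1. Leaving out a pair gave far wider ranges, of -0.102 to 1.563 for Csn1s1, 0.574 to 2.34 for Csn2, -0.989 to 1.838 for Csn1s2a, -0.193 to 0.111 for Csn1s2b, 0.023 to 0.117 for Wap, -1.485 to -1.177 for Lalba and -0.237 to 0.855 for Glycam1. Glycam1 had 0.52 with the scanner's processed signals and was dropped when both channels had to be above background on all 4 arrays; Csn1s2a had 0.25 in the authors' deposited table, and Wap had 0.15 with median centring. Elf5 ran from -0.023, without the Cy3 array of pair 1, to 0.081 and Madcam1 from -0.051 to 0.023 with 1 array left out. Median centring turned Cxcl13 to -0.033, Krt5 to 0.029 and Madcam1 to 0.064, and averaging all probes turned Madcam1 to 0.011. The limma fit is itself paired, since each ratio sets 2 tumours of 1 pair against each other; the fit of separate tumour levels with no replicate block called 0 genes. With 2 pairs, a ratio that differs between them, as for Csn1s1, Csn2 and Csn1s2a, has a wide error, and signals at saturation or background set the limit for Csn3 and Glycam1.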
